A study of Caenorhabditis elegans with 2 samples.

Results

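The vitellogenin genes vit-1, vit-2, vit-3, vit-4, vit-5 and vit-6 encode the yolk proteins of Caenorhabditis elegans, and all 6 were found by name among the 19973 nuclear protein-coding genes of the WBcel235 annotation. The data are chromatin immunoprecipitation sequencing (ChIP-seq) peak lists for LIN-40, a worm counterpart of mammalian MTA proteins, which belong to the histone deacetylase complex NuRD. There is 1 group of 2 samples, biological replicates 3 and 4 of strain OP485. Per the labels these were whole hermaphrodites at the young adult stage, taken 57.25 hours after release of larvae that had hatched and starved as L1. All of them carried LIN-40 fused at its C terminus to GFP-FLAG from a stable transgene, and the fusion was precipitated through GFP. No source used here gives the promoter of the transgene or its level beside the untagged protein. Control libraries were not analysed here. Whole worms mix intestine, germline and other tissues, so a region bound in few cells and one bound weakly in many cannot be told apart.

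Yolk proteins are made in the intestine of the adult hermaphrodite, secreted into the body cavity and taken up by growing oocytes through the receptor RME-2. The products of vit-1 to vit-5 make up the large yolk polypeptides, and the product of vit-6 is a precursor that is cut into the smaller ones. Transcription in the intestine depends on GATA factors such as ELT-2 and on the homeodomain proteins UNC-62 and CEH-60. Classical work on vit promoters defined the elements VPE1 and VPE2, the second of which holds a GATA site.

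Members were chosen by name and not by their values, though with earlier results of these data known. A region was counted for a gene where its summit lay between 1000 bp upstream of the annotated gene start and the gene end. The deposited lists read here were 4 in number, all on build ce11: 1 of 3066 regions past the authors' irreproducible discovery rate (IDR) threshold, 1 of 30000 regions from both samples pooled, and 1 of 30000 regions from each replicate. The lists of 30000 hold background regions by design, so a place in them is a rank and not a call. The signal of a region is the value set by the authors' caller, in a unit that no source used here gives, and each list has its own scale. Distances are from the gene start on the strand of the gene, negative upstream.

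The 6 genes are near-equal in size, and in each of them 1 exon is much longer than the rest. On X, vit-1 (WBGene00006925) runs from 7727889 to 7733168, vit-2 (WBGene00006926) from 5101042 to 5106169 and vit-5 (WBGene00006929) from 3403471 to 3408603, all on the plus strand. Also on X, vit-4 (WBGene00006928, 3558769 to 3563965) and vit-3 (WBGene00006927, 3567355 to 3572549) follow each other on the minus strand, 3389 bp apart. On chromosome IV, vit-6 (WBGene00006930) runs from 8261157 to 8266459 on the plus strand. Lengths were 5128 to 5303 bp with 5 or 6 exons, and the annotated coding sequence began within 16 bp of the gene start.

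The promoters are shown because the strongest regions lay at or just upstream of the gene starts. Each sequence is the 250 bases before the gene start, read 5′ to 3′ on the strand of the gene from the WBcel235 genome (RefSeq). Capitals mark matches on either strand to VPE1 (TGTCAAT), VPE2 (CTGATAA) and the GATA site (TGATAA), which lies inside VPE2.
vit-1, chrX:7727639-7727888, plus strand: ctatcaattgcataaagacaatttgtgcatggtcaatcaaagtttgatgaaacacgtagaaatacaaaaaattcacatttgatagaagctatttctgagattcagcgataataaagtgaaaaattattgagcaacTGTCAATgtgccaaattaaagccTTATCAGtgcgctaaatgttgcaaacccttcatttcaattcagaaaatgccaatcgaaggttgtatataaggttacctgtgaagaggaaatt
vit-2, chrX:5100792-5101041, plus strand: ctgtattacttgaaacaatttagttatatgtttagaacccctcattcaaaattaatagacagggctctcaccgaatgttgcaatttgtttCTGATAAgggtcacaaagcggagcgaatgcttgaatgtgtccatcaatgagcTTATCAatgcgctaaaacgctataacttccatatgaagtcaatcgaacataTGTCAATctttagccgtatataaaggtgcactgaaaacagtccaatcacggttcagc
vit-3, chrX:3572550-3572799, minus strand: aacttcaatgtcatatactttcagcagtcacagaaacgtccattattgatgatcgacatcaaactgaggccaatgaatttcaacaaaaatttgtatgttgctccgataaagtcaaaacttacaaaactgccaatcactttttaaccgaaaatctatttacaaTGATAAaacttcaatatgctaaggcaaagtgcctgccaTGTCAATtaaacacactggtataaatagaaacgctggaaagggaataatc
vit-4, chrX:3563966-3564215, minus strand: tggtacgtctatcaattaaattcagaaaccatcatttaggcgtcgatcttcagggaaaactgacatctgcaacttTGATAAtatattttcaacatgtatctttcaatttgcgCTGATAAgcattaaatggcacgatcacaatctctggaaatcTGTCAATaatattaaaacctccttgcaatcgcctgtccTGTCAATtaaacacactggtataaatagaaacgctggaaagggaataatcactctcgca
vit-5, chrX:3403221-3403470, plus strand: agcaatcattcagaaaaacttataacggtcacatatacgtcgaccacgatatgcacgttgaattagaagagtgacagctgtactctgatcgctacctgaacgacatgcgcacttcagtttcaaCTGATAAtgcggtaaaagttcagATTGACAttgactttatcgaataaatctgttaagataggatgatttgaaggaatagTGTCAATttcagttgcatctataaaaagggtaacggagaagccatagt
vit-6, chrIV:8260907-8261156, plus strand: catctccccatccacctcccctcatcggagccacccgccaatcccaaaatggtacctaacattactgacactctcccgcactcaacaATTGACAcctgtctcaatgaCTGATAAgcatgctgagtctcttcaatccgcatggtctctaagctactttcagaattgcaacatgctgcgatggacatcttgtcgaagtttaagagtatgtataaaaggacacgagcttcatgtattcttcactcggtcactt

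The yolk gene elements stood in nearly all of these promoters. In windows of 250 bases before to 50 bases after the start, VPE1 was present at 6 of 6 vit genes, and at 5.77% of all 19973 protein-coding promoters. VPE2 was present at 5 of 6, the exception being vit-3, and at 8.15% of all promoters. Both were present at 5 of 6 vit genes and at 0.506% of all promoters. The shorter GATA site TGATAA was at 6 of 6 and at 30.2% of all promoters. Since VPE1 and VPE2 were first defined on vit promoters, their presence here describes the genes and is no independent result. GAGAGA was at 1 of 6, vit-2, where its match lay 22 bp inside the gene, and at 21.8% of all promoters. The E-box CACGTG was at 0 of 6 and at 5.82% of all promoters. Within the 250 bases before the start, the promoter of vit-3 shares its last 50 bases with vit-4, the longest run in common to any pair of the 6. This run reaches the gene start of vit-3, where the sequence searched ends, so its full length was not measured. In the other pairs the longest shared run was 7 to 11 bases.

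Of the 6 genes, 2 had a region past the IDR threshold: vit-2 and vit-6 (33.3%, exact Clopper-Pearson 95% interval 4.33 to 77.7, which covers counting error only). The same window held an IDR summit at 11.7% of all protein-coding genes, 14.2% of those on X, 11.2% of those on IV and 16.4% of the 2274 genes of 4000 to 6500 bp. All of these background shares lie below 33.3% and inside the interval. With 6 related genes the interval is wide and treats them as independent, so it cannot show whether the family differs from the background. Both summits lay within 250 bp of the gene start, where 4.99% of all protein-coding genes had one. The region of vit-2, chrX:5100916-5101478, had a signal of 145.7 and its summit at 23 bp, in the first coding exon. It ranked 1822 of 3066 in the IDR list. The region of vit-6, chrIV:8261046-8261526, had a signal of 112.9 and its summit at 32 bp, also in the first coding exon, and ranked 2594. Both therefore stood in the weaker part of the list, whose median signal was 164 and whose lowest was 99.97. The next gene of the family, vit-5, lay outside the list with a pooled signal of 79.2 at rank 4095.

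All 6 genes had a summit within 250 bp of their start in the pooled list and in the list of each replicate, but some were weak. In replicate 4, vit-3 had 12.7, below that list's median of 16.2, and vit-1 had 19.2. In replicate 3, vit-4 had 17.0, against a median of 14.1. The lists hold background regions, so the 6 of 6 counts ranked places and not calls. The distance of 250 bp was chosen after the values were seen. A pooled summit this close to the start was found at 19.0% of all protein-coding genes and at 25.4% of the genes of 4000 to 6500 bp; a summit in all 3 of the lists was found at 13.7% of all genes. Anywhere in the wider window, 6 of 6 vit genes had a pooled summit (exact Clopper-Pearson 95% interval 54.1 to 100%), against 36.2% of all protein-coding genes and 49.2% of the genes of similar length. In none of the 4 lists did a summit of any vit gene lie between 1000 and 250 bp upstream. The members share sequence and ancestry, and those on X share a chromosome, so they are not independent of each other.

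**Figure D1:**
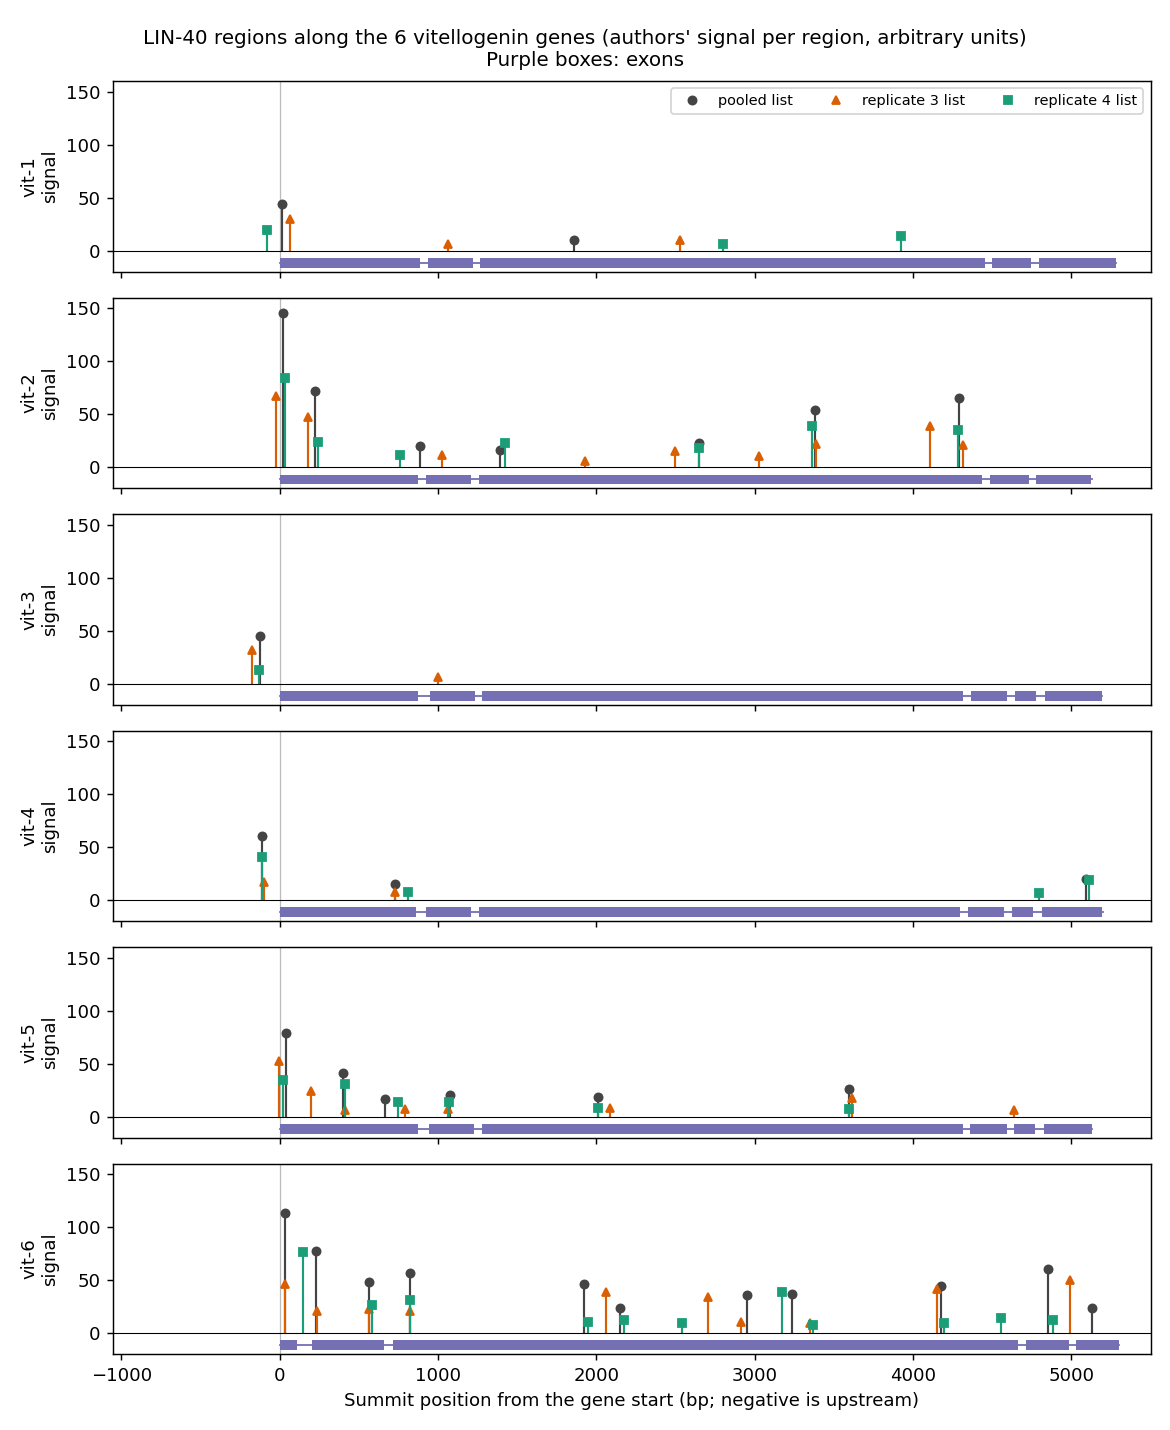
Regions along each vitellogenin gene, placed by summit (x, bp from the gene start) with the authors' signal (y, arbitrary units), from the pooled list (circles), replicate 3 (triangles) and replicate 4 (squares); purple boxes are exons. The highest pooled region of each gene lies at its start, from 43.7 for vit-1 to 145.7 for vit-2, and pooled regions more than 250 bp inside the gene number 9 in vit-6 and 5 each in vit-2 and vit-5.

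The start of vit-2 carried the highest signal of the family in both replicates. Its strongest summit there reached 67.5 in replicate 3 (at -22 bp, rank 1992 of 30000), 84.5 in replicate 4 (at 37 bp, rank 1759) and 145.7 in the pooled list. A second pooled summit in the same interval, at 222 bp, had 72.2, with summits near it of 47.5 in replicate 3 and 24.1 in replicate 4. The 2 replicates thus placed the main summit of vit-2 within 59 bp of each other, at close ranks.

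The start of vit-6 came second in the pooled list and in replicate 4. It had 46.7 in replicate 3 (at 32 bp, rank 3369), 76.4 in replicate 4 (at 147 bp, in the first intron, rank 2050) and 112.9 in the pooled list (at 32 bp). A second pooled summit in the same interval, at 231 bp, had 77.3. The summit of replicate 4 lay 115 bp from the first pooled summit and 84 bp from the second, so it cannot be matched to the first alone. The gene start is shared with K07H8.16, a non-coding RNA gene on the opposite strand whose start lies 7 bp upstream, so this region cannot be given to vit-6 alone. At the pooled signal of 112.9, vit-6 was the lower of the 2 genes that passed the IDR threshold.

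At vit-5 the start had 52.7 in replicate 3 (at -5 bp, rank 2872), 34.1 in replicate 4 (at 22 bp, rank 6210) and 79.2 in the pooled list. It lay within the 3066 highest regions of replicate 3, and outside them in replicate 4. The order of vit-5 and vit-6 at the start was therefore opposite in the 2 replicates.

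At the tandem genes vit-4 and vit-3 the strongest summit lay upstream of the start in the pooled list and in both replicates, and the IDR list held no summit of either gene. For vit-4 the signal was 17.0 in replicate 3 (at -100 bp, rank 12105), 40.3 in replicate 4 (at -111 bp, rank 5041) and 60.5 in the pooled list (at -109 bp). For vit-3 it was 31.6 in replicate 3 (at -175 bp, rank 5651), 12.7 in replicate 4 (at -128 bp, rank 19003) and 45.0 in the pooled list (at -121 bp). Replicate 3 was the higher at vit-3 and the lower at vit-4, so the replicates disagree on which of the pair is the stronger.

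The lowest pooled start signal was that of vit-1. It had 29.8 in replicate 3 (at 66 bp, rank 6125), 19.2 in replicate 4 (at -79 bp, rank 12519) and 43.7 in the pooled list (at 15 bp, rank 8025). In the pooled list its −log10 q-value of 3.16 was the lowest of the 6 start summits, followed by 3.71 for vit-3; the other 4 were at the list's maximum of 4.13, which 6816 of the 30000 pooled regions reached.

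The pooled order of start signals was vit-2, vit-6, vit-5, vit-4, vit-3 and vit-1, but only part of it held in both replicates. Of the 15 pairs of genes, 10 were ordered alike in replicates 3 and 4 and 5 were not. The pairs of opposite order were vit-1 and vit-3, vit-1 and vit-4, vit-3 and vit-4, vit-4 and vit-5, and vit-5 and vit-6. Of the neighbours in the pooled order, vit-2 and vit-6 alone kept their order in both replicates, and vit-2 stood first in both. The difference of replicate 4 from replicate 3 at the start ran from -1.32 (vit-3) to 1.25 (vit-4) on the log2 scale, with 3 genes higher in each. These signals come from lists with separate scales; the median signal over all regions was 14.1 in replicate 3 and 16.2 in replicate 4.

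**Figure D2:**
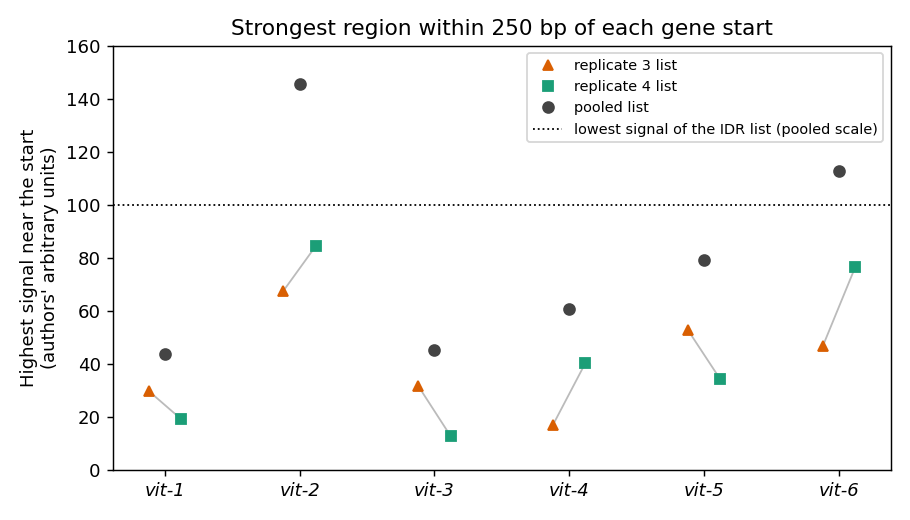
Highest signal within 250 bp of each gene start (y, authors' arbitrary units) in the lists of replicate 3 (triangles), replicate 4 (squares) and both samples pooled (circles); grey lines join the replicates and the dotted line is the lowest signal of the IDR list, 99.97 on the pooled scale. Only the pooled values of vit-2 and vit-6 lie above the line, and the replicates differ in opposite directions from gene to gene.

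Among the protein-coding genes with a pooled summit near the start, the vit genes covered the upper to middle ranks. Of 3797 such genes, vit-2 ranked 654, vit-6 877, vit-5 1217, vit-4 1542, vit-3 1885 and vit-1 1933. The median start signal was 69.9 over the 6 vit genes and 44.7 over the 3797 genes, and the vit genes are part of both. Over the whole window the median highest signal was 69.9 for the vit genes, against 59.9 for the 7225 protein-coding genes with a pooled summit, 60.1 for those on X and 61.5 for those of 4000 to 6500 bp. In all 6 vit genes the strongest pooled summit of the window lay within 250 bp of the start, which held for 35.1% of the 7225 genes. That distance was chosen after the values were seen, and vit-3 had only 1 pooled summit, so the comparison is a description.

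**Figure D3:**
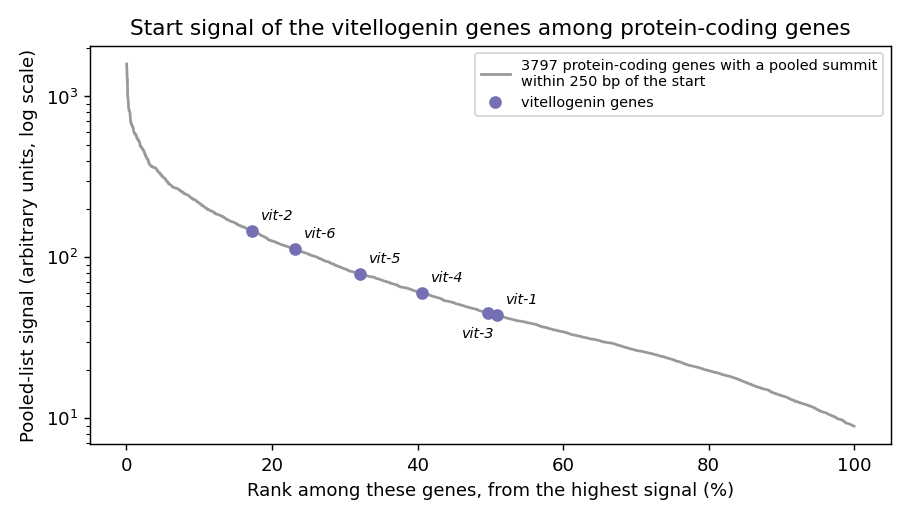
Highest pooled signal within 250 bp of the gene start (y, log scale, arbitrary units) against rank in percent (x) for 3797 protein-coding genes (grey line), with the vitellogenin genes as labelled points. The points run from 17.2% (vit-2) to 50.9% (vit-1).

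Regions inside the genes, more than 250 bp past the start, ranged from many in vit-6 to none in vit-3. The pooled list had 9 such summits in vit-6, 5 in vit-2, 5 in vit-5, 2 in vit-4, 1 in vit-1 and 0 in vit-3. Of the 30 pooled summits of the family, starts included, 26 lay in coding exons, 2 upstream, 1 in an intron and 1 in a 3′ UTR. Among the 2274 protein-coding genes of 4000 to 6500 bp the median was 0 summits in the gene body. Of them, 17 (0.748%), vit-6 included, had at least 9, and 253 (11.1%), vit-2 and vit-5 included, had at least 5. At least 2, as in vit-4, were found in 692 (30.4%), and at least 1, as in vit-1, in 918 (40.4%). Pooled regions covered 50.1% of the window of vit-6 and 49.8% of that of vit-2, against 39.6% at vit-5, 20.4% at vit-4, 14.8% at vit-1 and 10.1% at vit-3. The median over the genes of that length was 2.04%. The share of them covered at least as much was 4.44% for vit-6, 4.53% for vit-2 and 10.5% for vit-5. It was 26.8% for vit-4, 33.1% for vit-1 and 39.7% for vit-3, so the coverage of these was common at that length.

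The strongest internal summits of the pooled list were found in vit-2 and vit-6. In vit-2 the pooled summit at 4289 bp, in the third exon, had a signal of 65.7, and the one at 3380 bp had 53.6. Both were at the maximal −log10 q-value. At 4289 bp the nearest summit had 21.0 in replicate 3, which also had one of 38.8 at 4106 bp, and 34.7 in replicate 4; at 3380 bp the values were 21.8 in replicate 3 and 38.8 in replicate 4. The replicates placed both summits within 32 bp of each other.

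In vit-6 the pooled summits at 4855 bp (60.2) and 823 bp (56.5) were the strongest in the gene body, and both were at the maximal −log10 q-value. At 823 bp the nearest summit of replicate 3 had 20.5 and that of replicate 4 had 31.6, within 4 bp of each other. The middle and the 3′ part differed between the samples. In the middle, replicate 3 had 38.4 at 2063 bp and 33.9 at 2708 bp. Near these, replicate 4 had 10.65 at 1949 bp, 12.1 at 2177 bp and 9.25 at 2539 bp. In the 3′ part, replicate 3 had 41.9 at 4152 bp and 50.3 at 4992 bp, the last of these above its own start signal of 46.7. There replicate 4 had 9.63 at 4193 bp and 12.3 at 4884 bp. The strongest internal summit of replicate 4 was at 3171 bp (38.8), and the nearest of replicate 3, 177 bp away, had 9.65. In replicate 3 the region at 4992 bp ranked 3073, just outside the 3066 highest. This gene in replicate 3 was the sole case, over the 6 genes and the pooled and replicate lists, in which the strongest summit did not lie near the start.

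The internal regions of vit-5 were low. Its highest pooled summit past the start, at 404 bp, had 40.7, with 6.50 in replicate 3 and 31.2 in replicate 4 close by. The other 4 had 16.8 to 26.0, around or below the pooled median of 24.5. In vit-4 the 2 internal pooled summits had 14.8 at 732 bp and 20.3 at 5094 bp, in the 3′ UTR. The single one of vit-1, at 1861 bp, had 9.95, close to the list's lowest signal of 8.94, with no summit of either replicate within 100 bp.

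Most start summits, and part of the internal ones, had a summit of both replicates nearby. Within 100 bp of the 8 pooled summits near vit starts, replicate 3 had a summit at 8 and replicate 4 at 7. The exception was the vit-6 summit at 32 bp, which is in the IDR list and lay 115 bp from the nearest summit of replicate 4. Of the 22 internal ones, 11 had a summit of both replicates within that distance and 3 had one of neither. Over all pooled regions below the signal of the IDR list the share with both was 37.8%, and over those at or above it 95.1%. The pooled list was called on the same 2 samples, so a match is no independent support.

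Copies of sequence within the family bear on where reads can be placed. The coding sequences of vit-3 and vit-4 were identical at 99% of aligned bases, those of vit-5 and vit-3 at 97.7%, of vit-5 and vit-4 at 97.8%, and of vit-1 and vit-2 at 94%. Between vit-6 and the 5 others identity was 60.3 to 61.2%. In the gene body, words of 36 bases that occur once in the genome made up 100% of vit-6, 79.8% of vit-1 and 79.2% of vit-2. They made up 41.2% of vit-5, 21.4% of vit-3 and 17.7% of vit-4. With words of 50 bases the shares were 100% for vit-6, 86.7% for vit-1, 86.3% for vit-2, 49.4% for vit-5, 26.1% for vit-3 and 21.3% for vit-4. No source used here gives the read length or the treatment of reads that match several places.

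The genes with the least single-copy sequence in the gene body, vit-3 and vit-4, had 0 and 2 internal pooled regions. Within 250 bp of their starts, words of 36 bases found once were 50.7% at vit-3 and 48.9% at vit-4, all other genes being at 85.6% to 100%. Upstream of that, all 6 genes were at 100%. Around the pooled start summits themselves, 100 bp either side, the share was 100% at vit-3 and 90.4% at vit-4, where the summits lay upstream of the gene. The part of repeated sequence in the position and number of these regions was not tested. For vit-1 and vit-2 the single-copy share was near-equal in the gene body and 99.8 to 100% around the start. The pooled start signal was 145.7 at vit-2 and 43.7 at vit-1, and the pooled internal regions numbered 5 in vit-2 and 1 in vit-1.

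**Figure D4:**
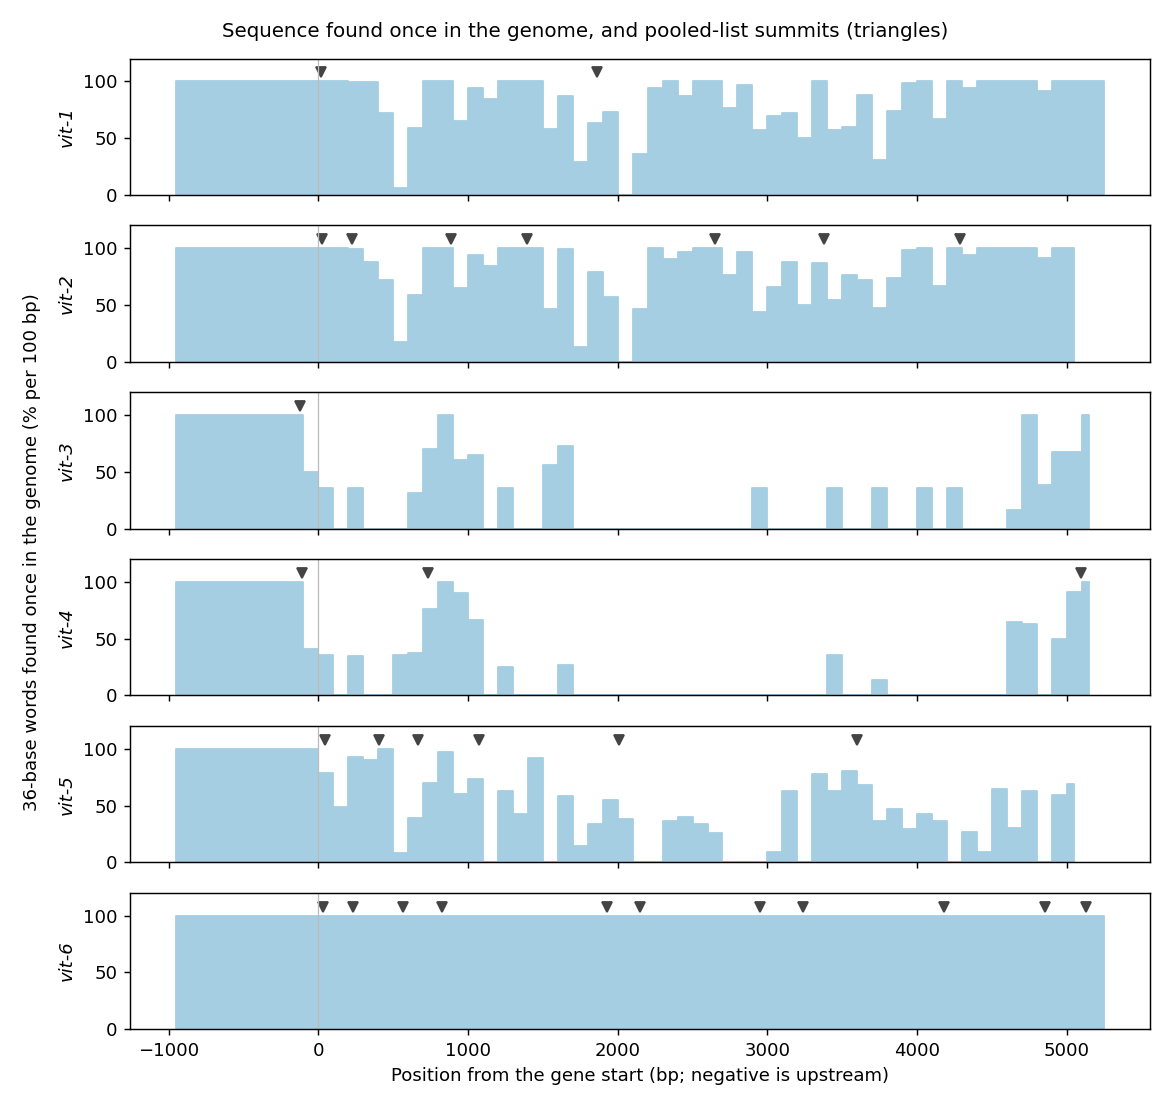
Share of 36-base words found once in the genome, in steps of 100 bp (y, %), along each vitellogenin gene and the 1000 bp upstream of it (x, bp from the gene start); triangles are pooled-list summits. In vit-3 and vit-4 the share drops at the start and is at 0 along most of the central exon, where no pooled summit lies, while vit-6 is at 100% throughout.

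Genes that regulate, carry or take up yolk were read in the same way. Of a list of 15, 5 had an IDR summit in the same window (33.3%; the background of 11.7% is over genes of all lengths, and the 5 are long genes of 7551 to 46333 bp). They were the insulin pathway transcription factor gene daf-16 (241, at 19405 bp), rme-1 of endocytic recycling (147, at 5148 bp), the insulin receptor gene daf-2 (139, at 4661 bp), unc-62 (117, at 10557 bp) and ceh-60 (105, at 7312 bp), with the pooled signal and place of the strongest summit. In each of the 5 the strongest summit lay far inside the gene. A pooled summit within 250 bp of the start was found at 3 of the 15, close to the 19.0% of all protein-coding genes: daf-16 (81.4), the SMAD gene sma-3 (45.6) and the kinase gene sgk-1 (19.6). The yolk receptor gene rme-2, the lipid transfer gene dsc-4 and the GATA factor genes elt-2 and elt-7 and the kinase complex gene rict-1 had no pooled summit in the window. In the replicate lists, rict-1 had a summit of 102.7 in replicate 4, above the 84.5 of vit-2 there, and none in replicate 3, and elt-2 had one of 38.5 in replicate 3 and none in replicate 4.

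Of 20 other genes expressed in the intestine, 1 had an IDR summit (5%), against 11.7% of all protein-coding genes: erm-1, which encodes a linker of membrane and actin (121, at -329 bp). Near the start, 5 of the 20 had a pooled summit, beside 19.0% of all protein-coding genes, among them the intestinal actin gene act-5 (61.3) and the aspartyl protease gene asp-6 (44.7). These 2 were the only ones at or above the start signal of vit-1. At the protease genes cpr-6 (34.0), cpr-1 (31.0) and asp-1 (21.8) the start summit was weaker. The lists were written with earlier results of these data known, and both mix genes of many lengths, so no test was made between them and the vit genes.

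The genes most like each vit gene in 3 values (highest signal in the window in each replicate, and share of the window covered by pooled regions) were named by Euclidean distance over 6998 other protein-coding genes. They were Y62E10A.20 and ech-6 for vit-2, Y37A1A.2 and pifk-1 for vit-6, lin-56 and gly-13 for vit-5, usp-33 and wrt-1 for vit-4, F32H2.12 and F55A3.2 for vit-3, and srh-269 and Y105E8B.7 for vit-1. Distances ran from 0.0632 to 0.179 in SD units. Y62E10A.20, on IV, had its highest signal at 72.8 in replicate 3 and 87.8 in replicate 4, and 49.2% of its window was covered. The 6998 genes were those with a summit in the lists of both replicates, and the place of the summit was not among the 3 values. Since the genes were picked for closeness among so many, their near-equal values are a description and no result.

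Few other annotated starts lay close to the vit summits. Beside K07H8.16 at vit-6, non-coding RNA genes on the opposite strand start 149 bp inside vit-4 (F59D8.3) and 170 bp inside vit-3 (T27A10.8), and C42D8.16 starts at -871 bp of vit-2. The protein-coding gene T27A10.5, on the strand of vit-3, starts at -1033 bp of it and ends 295 bp before it. No other gene start lay within 1000 bp of a summit counted for vit-1 or vit-5. Other protein-coding genes also reach into the windows of vit-2 (C42D8.9) and vit-5 (C04F6.9). The regions at vit-3 and vit-4 can therefore not be assigned between the yolk gene and its opposite-strand neighbour by position alone.

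For each replicate alone, the 3066 highest regions held vit-2 and vit-5 in replicate 3 and vit-2 and vit-6 in replicate 4. The same rule was met by 11.9% of all protein-coding genes in replicate 3 and 11.7% in replicate 4. Of the family, vit-2 alone was thus in the IDR list and among the 3066 highest of both replicates.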

How the data were processed

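Peak lists of LIN-40 ChIP-seq from 2 samples were used as the authors deposited them on build ce11. Per the deposited file listings, regions were called on each sample alone and on both pooled, against a control alignment, and an IDR threshold was then applied; no source used here gives the caller, aligner or threshold. For every region the authors deposited a signal value, a −log10 q-value and the offset of its summit. Read depth is unknown, since the lists hold no read counts, and this limits the precision of every signal. Nearly all regions of the larger lists have a fixed width (464 bp in 89.2% of pooled regions), so width was not interpreted.

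Summits (1-based) were placed on the Ensembl release 115 annotation of WBcel235, the assembly of ce11; the last pooled region of every chromosome ended within the reference length. Motifs, words and coding identity (Biopython 1.88, global alignment) came from the WBcel235 genome sequence. Counts were made in Python 3.11.15 with pandas 2.3.3 and scipy 1.17.1, after a check on invented regions. With 1 group there was no test between groups. Lists on ce10 served only for the number of regions in the IDR list.

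All 6 vit genes are named, with members of 2 context lists that have an IDR summit, the 2 most similar genes each (by z-scaled log2 signal and coverage), and genes starting within 1000 bp of a summit; other context genes and the distance of 250 bp were chosen after the values were seen. Members and lists were chosen with earlier results of these data known. Alternatives were other windows, overlap, stricter lists and single replicates.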

Additional observations from a re-analysis of the deposited data

How the results depend on the processing

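The count of 2 vit genes with an IDR summit was 2 under each other window (500 or 2000 bp upstream, the promoter alone, the gene body alone, 250 bp either side of the start) and with overlap of at least 1 bp in place of the summit. It was 0 with the stronger 50% of the IDR list, where neither vit-2 nor vit-6 remained, because both rank in the weaker part. Leaving out a replicate gave 2 to 2, but vit-5 took the place of vit-6 without replicate 4. As many top pooled regions as the ce10 IDR list holds (4635, chosen after the values were seen) gave 3, with vit-5. The count of 6 with a pooled summit was 5 in the gene body alone, without vit-3, and 6 under all other alternatives run. The rank of the highest region moved beyond the replicate spread in 4 of 23 single-gene comparisons. That spread was the SD of the 2 single-replicate ranks, which were also among the values compared. It was 15.1 for vit-1, where the replicates differed, and 0.549 for vit-2, where they were close. The count is therefore no measure of stability. The moved ranks were those of vit-2, vit-3 and vit-4. For vit-2 the rank was 6.64% of the list from the top without replicate 4, against 6.07% in the pooled list. For vit-3 it was 63.3% without replicate 3, against 25.8%. For vit-4 it was 40.4% without replicate 4 and 59.4% in the gene body alone, against 18.6%. The gene body alone gave no rank for vit-3. No paired analysis was possible because there is a single group. Without read counts, a signal near the lowest of a list cannot be told from background.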
